A study of Mus musculus with 21 samples.

Results

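The sprouty genes Spry1, Spry2 and Spry4, the related genes Spred1 and Spred2, the phosphatase genes Dusp4, Dusp5 and Dusp6, and the transcription factor genes Etv4 and Etv5 are described here in mouse dorsal root ganglia. They were chosen by name as 10 of the 24381 genes present in both count tables of the series, and all 10 passed the filter on low counts in every main fit. The family was taken up because of the Spry4 value for 1 contrast, the genotype difference after CFA minus the genotype difference in untreated ganglia. That contrast is therefore a description with no test for any member, and for Spry4 the CFA and genotype differences that make it up are given with no p-value and enter no count of members called or of ranges that do not overlap.

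ERK is the last kinase of a cascade that starts at growth factor receptors and passes through Ras, Raf and MEK. Active ERK induces its own brakes: sprouty and SPRED proteins act on the Ras and Raf steps, and DUSP4, DUSP5 and DUSP6 are phosphatases that remove phosphate from MAP kinases. ETV4 and ETV5 are ETS-family transcription factors whose genes are also induced by the pathway, so the transcripts of this group are often read as a record of ERK activity. In sensory neurons the cascade carries signals of nerve growth factor and its relatives, and ERK becomes phosphorylated in ganglia during inflammation.

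RNA was sequenced from whole ganglia of mice carrying a floxed Tmem45b gene together with Mrgprd-cre (cKO) or the floxed gene alone (flox). Mrgprd is active in a class of nonpeptidergic pain- and itch-sensing neurons, so the deletion concerns only part of the cells of a ganglion, and no group carried Cre without the floxed gene. From a CFA model there were 4 cKO and 4 flox libraries (CFA usually stands for complete Freund's adjuvant, an agent that causes inflammation). The untreated libraries fall by their names into a con/ko set of 4 cKO and 3 flox libraries, held in a table of its own, and an LDRG set of 3 cKO and 3 flox libraries that shares a table with the CFA libraries. Genotypes come from the sample titles, because the genotype field names the Cre line for every sample. The labels used here give no age, strain or interval after CFA, and nothing in them ties a library to an animal, and the p-values then reflect only how far these samples spread, which may be partly technical.

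Library totals lay between 53.4 and 72.5 M counts. Tmem45b, the deleted gene, was at 59.9 to 89.1 CPM (counts per M of a TMM-adjusted library size) in the 7 untreated cKO libraries and at 124 to 179 CPM in the 6 untreated flox libraries. In the CFA model it was at 108, 105, 67.6 and 61.8 CPM in cKO and at 65.9, 116, 136 and 80.2 CPM in flox libraries, so it did not separate these labels, and the CFA libraries are called below "labelled cKO" and "labelled flox". Xist, expressed from the inactive X chromosome, was at 283 CPM or more in all 8 CFA libraries, at 0.33 CPM or less in all 6 LDRG libraries, and high in con/ko libraries coded F and near 0 in those coded M. CFA and sex therefore cannot be told apart in comparisons with the LDRG set. Con/ko libraries coded F give a comparison at matched Xist. They belong to another set and table than the CFA libraries, so CFA and set cannot be told apart there.

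The members differed widely in level. Scaled by the exon length of the GENCODE vM21 gene model, the mean over 21 libraries was highest for Etv5, at 27.5 CPM per kb, followed by Spred1 at 19.5 and Spred2 at 18.4 CPM per kb. Dusp5 (9.73), Spry2 (9.32), Spry4 (7.81) and Dusp6 (7.47 CPM per kb) formed a middle tier. Dusp4 at 1.81, Etv4 at 1.54 and Spry1 at 0.88 CPM per kb were the lowest. Spry1 rested on 93 to 364 counts per library and Etv5 on 5483 to 12422, so the low members carry the larger counting error. The steadiest member was Dusp5, whose highest library was 1.44 times its lowest, and the ratio was 4.12 for Spry1 and 3.47 for Etv4. For Dusp6 it was 15.2, which rests on 1 library, flox CFA library 3, and 2.33 over the other 20 libraries.

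Promoter windows from RefSeq (GRCm38.p6, 250 bases before to 50 after the start) were found for 7 of the 10 members, as 8 windows. They were searched on both strands for the ETS core CGGAAG, to which factors of the ETV4 and ETV5 kind bind, and for the AP-1 motif TGANTCA and the CRE motif TGACGTC. The ETS core was present in the windows of Spred1, Spred2 and Dusp6, 3 of the 8 windows, against 16.9% of all 32851 windows. No member window held TGANTCA (7.81% of all windows), and TGACGTC was found only in that of Spred2 (3.21% of all windows). The 3 windows that hold the ETS core are shown to place its matches. The windows of Spry1 and Etv5, which also differed between groups below, held no ETS core. Capitals mark the matches, which on the opposite strand read CTTCCG and GACGTCA. The 3 windows shown are all on the plus strand, at chr2:117120821-117121120 for Spred1, chr11:19924192-19924491 for Spred2 and chr10:99262981-99263280 for Dusp6.
Spred1: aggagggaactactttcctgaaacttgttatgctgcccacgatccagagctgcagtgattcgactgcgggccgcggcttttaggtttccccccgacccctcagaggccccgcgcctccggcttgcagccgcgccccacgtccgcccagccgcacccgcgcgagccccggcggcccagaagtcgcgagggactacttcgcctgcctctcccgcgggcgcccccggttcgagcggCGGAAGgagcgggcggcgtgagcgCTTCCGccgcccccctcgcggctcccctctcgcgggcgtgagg
Spred2: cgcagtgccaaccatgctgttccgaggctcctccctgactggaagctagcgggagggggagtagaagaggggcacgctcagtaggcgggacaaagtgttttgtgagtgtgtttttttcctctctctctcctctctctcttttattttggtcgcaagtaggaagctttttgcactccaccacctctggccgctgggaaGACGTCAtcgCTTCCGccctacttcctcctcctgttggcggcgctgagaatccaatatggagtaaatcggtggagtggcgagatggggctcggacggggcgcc
Dusp6: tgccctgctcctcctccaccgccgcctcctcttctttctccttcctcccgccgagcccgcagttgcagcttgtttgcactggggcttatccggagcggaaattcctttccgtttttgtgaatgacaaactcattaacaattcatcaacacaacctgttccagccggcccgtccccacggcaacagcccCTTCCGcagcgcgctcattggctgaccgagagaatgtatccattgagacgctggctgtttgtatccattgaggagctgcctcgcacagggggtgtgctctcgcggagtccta
In Spred1 the core begins 17 bases before the start on the sense strand and occurs again at base 8 after it in antisense orientation. In Spred2 it begins 43 bases before the start in antisense orientation, with the TGACGTC match 53 bases before the start. In Dusp6 it begins 62 bases before the start, in antisense orientation. A match is a run of letters and does not show binding.

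On build mm10 the sprouty genes lie at chr3:37639947-37644598 on the plus strand (Spry1), chr14:105891947-105896819 on the minus strand (Spry2) and chr18:38586247-38601415 on the minus strand (Spry4). Spred1 occupies chr2:117121374-117182279 and Spred2 chr11:19924375-20024026, both on the plus strand. The phosphatase genes Dusp4 (chr8:34807297-34819894), Dusp5 (chr19:53529109-53542431) and Dusp6 (chr10:99263231-99267489) are on the plus strand. Etv4 (chr11:101769742-101785371) and Etv5 (chr16:22381309-22439719) are on the minus strand. Spry1, Spry4 and Dusp5 overlap 1, 2 and 1 annotated RNAs on the opposite strand, and whether the counting used strand is not given here, so reads of these partners cannot be told apart from theirs.

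**Figure D1:**
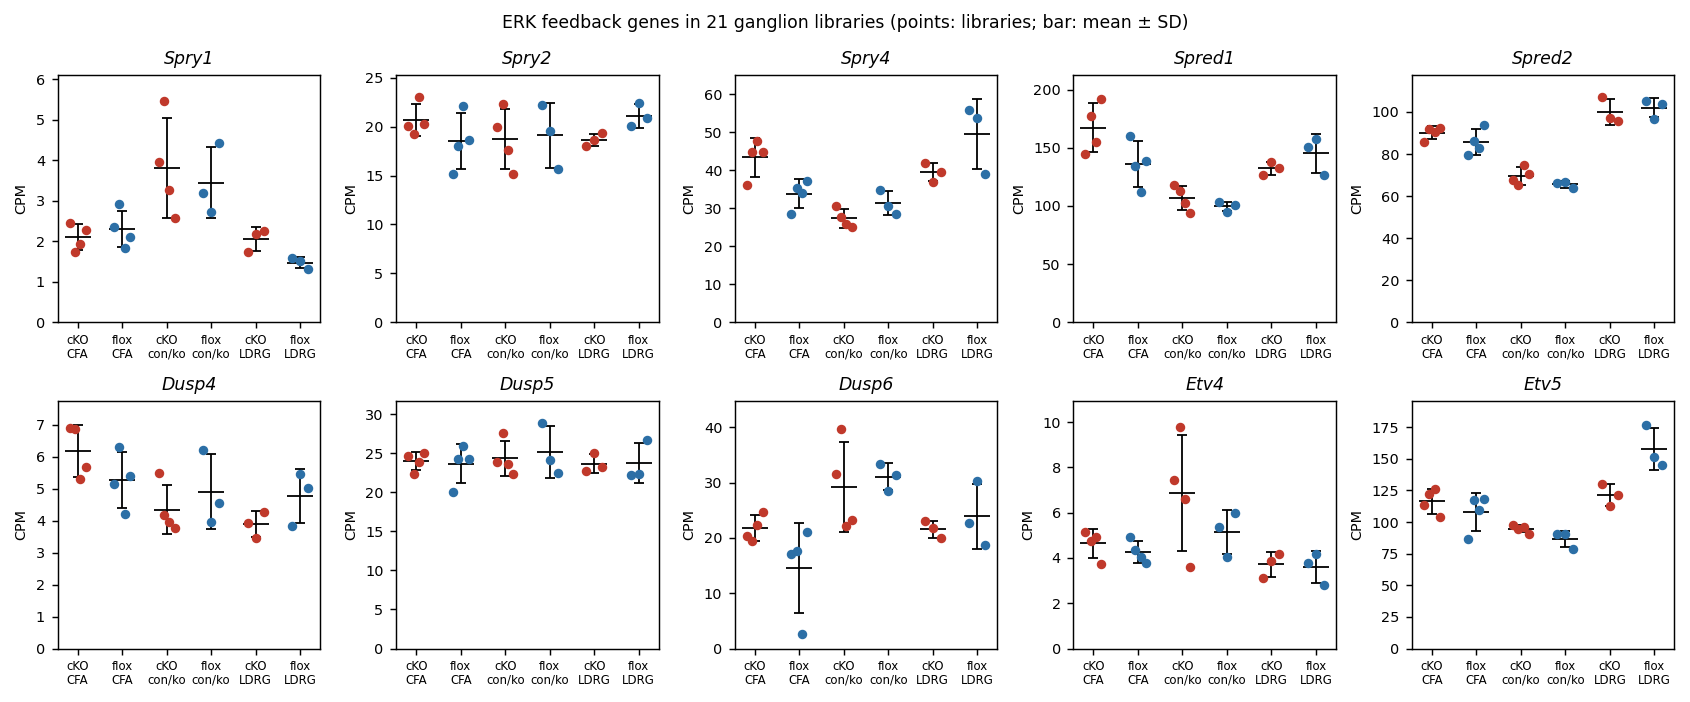
CPM of each of the 10 genes (vertical axis, linear from 0) in the 21 libraries by genotype and set; points are libraries (red cKO, blue flox), and bars give the mean ± SD of a group of 3 or 4. Spry4, Spred1, Spred2 and Etv5 are lower in con/ko than in LDRG libraries, Spry1 is higher, and 1 CFA library labelled flox is far below all others for Dusp6.

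Among the inhibitors, Spry4, which encodes a sprouty protein of the Ras and Raf step, was at 36.1, 44.7, 47.8 and 44.9 CPM in CFA libraries labelled cKO, against 28.4, 35.5, 34.0 and 37.3 CPM in those labelled flox. In the con/ko set it was at 30.6, 27.6, 25.9 and 25.2 CPM in cKO and at 34.96, 30.7 and 28.6 CPM in flox libraries. In the LDRG set it was at 41.9, 37.0 and 39.6 CPM in cKO and at 55.8, 53.8 and 39.0 CPM in flox libraries. Spry4 was thus higher on average in cKO than in flox under CFA and lower in both untreated sets, with overlapping ranges in all 3, and every con/ko library lay below every LDRG library.

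Spry1, a weakly expressed sprouty gene, was at 1.74 to 2.45 CPM in CFA libraries labelled cKO and at 1.84 to 2.91 CPM in those labelled flox. Its con/ko values were 3.96, 5.45, 3.26 and 2.57 CPM in cKO and 3.18, 2.73 and 4.41 CPM in flox libraries. Its LDRG values were 1.73, 2.17 and 2.26 CPM in cKO and 1.58, 1.51 and 1.32 CPM in flox libraries. All 7 con/ko libraries lay above all 6 LDRG libraries, and within the LDRG set all cKO libraries lay above all flox libraries. Spry2, another sprouty gene, stayed between 15.1 and 23.1 CPM in all 21 libraries.

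Spred2 encodes an inhibitor that keeps Raf from being activated. It was at 85.5, 91.7, 90.6 and 92.4 CPM in CFA libraries labelled cKO, against 79.5, 86.4, 82.7 and 93.7 CPM in those labelled flox. In the con/ko set it was at 67.5, 65.2, 74.7 and 70.6 CPM in cKO and at 66.2, 66.8 and 63.9 CPM in flox libraries. In the LDRG set it was at 107, 97.0 and 95.5 CPM in cKO and at 105, 96.8 and 104 CPM in flox libraries. The 3 sets formed separate bands, with no CFA library below a con/ko library and none above an LDRG library.

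Spred1, whose human counterpart is mutated in Legius syndrome, was at 145, 177, 155 and 192 CPM in CFA libraries labelled cKO, against 160.2, 134, 112 and 138 CPM in those labelled flox. In the con/ko set it was at 118, 112, 103 and 94.2 CPM in cKO and at 103, 95.2 and 101 CPM in flox libraries. In the LDRG set it was at 126, 138 and 133 CPM in cKO and at 151, 158 and 127 CPM in flox libraries. Here too every con/ko library lay below every LDRG library, while the CFA libraries labelled cKO lay above all untreated cKO libraries.

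Dusp6 encodes a cytoplasmic phosphatase with a preference for ERK. It was at 20.4, 19.4, 22.4 and 24.7 CPM in CFA libraries labelled cKO, against 17.0, 17.5, 2.61 and 20.99 CPM in those labelled flox. The con/ko libraries had 31.6, 39.6, 22.2 and 23.2 CPM in cKO and 33.4, 28.5 and 31.3 CPM in flox, and the LDRG libraries 23.0, 21.8 and 19.9 CPM in cKO and 22.6, 30.3 and 18.7 CPM in flox. The low value belongs to flox CFA library 3, with 184 counts, against 17.0 to 39.6 CPM in the other 20 libraries. The fold changes of Dusp6 that use that library are given below with and without it. By the likeness measure used at the end of this section, the 3 genes nearest to Dusp6 were Txnl4a, Zfp628 and Heyl, which were low in the same library: Txnl4a at 6.28 CPM against 46.9 to 60.8 in the others, Zfp628 at 0 against 5.58 to 8.26, and Heyl at 0.609 against 8.77 to 11.2.

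Dusp4 and Dusp5 encode nuclear phosphatases of MAP kinases. Dusp4 was at 6.90, 6.87, 5.32 and 5.68 CPM in CFA libraries labelled cKO, against 5.14, 6.32, 4.22 and 5.42 CPM in those labelled flox. It was at 3.77 to 5.49 CPM in cKO and 3.96 to 6.23 CPM in flox libraries of the con/ko set, and at 3.46 to 4.28 CPM in cKO and 3.82 to 5.48 CPM in flox libraries of the LDRG set. The CFA libraries labelled cKO lay above the LDRG cKO libraries without overlap. Dusp5 stayed between 20.04 and 28.9 CPM throughout, and no group stood apart.

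Etv5, the more abundant of the ETS factor genes, was at 113, 122, 126 and 104 CPM in CFA libraries labelled cKO, against 86.9, 118, 109 and 118 CPM in those labelled flox. In the con/ko set it was at 97.8, 94.5, 95.8 and 90.8 CPM in cKO and at 90.3, 90.4 and 79.1 CPM in flox libraries. In the LDRG set it was at 129.98, 113 and 122 CPM in cKO and at 177, 151 and 145 CPM in flox libraries. The genotypes were separated in both untreated sets but in opposite directions: cKO lay above flox in the con/ko set and below flox in the LDRG set. The con/ko gap was narrow, with cKO_conko 7 at 90.8 CPM and flox_conko 5 at 90.4 CPM. Etv4 was lower, at 3.74 to 5.13 CPM in CFA libraries labelled cKO and 3.80 to 4.92 CPM in those labelled flox, at 3.59 to 9.78 CPM in cKO and 4.06 to 5.999 CPM in flox libraries of the con/ko set, and at 3.11 to 4.18 CPM in cKO and 2.82 to 4.19 CPM in flox libraries of the LDRG set.

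Most of the 10 genes differed between the untreated sets. Spry4, Spred1, Spred2 and Etv5 were lower in con/ko than in LDRG ganglia, and Spry1, Dusp6 and Etv4 were higher, so the feedback genes did not move as a block. Of 10 members 7 passed the test (3 higher, 4 lower), against 47.3% of the 16706 genes tested (26.1% higher, 21.3% lower). The median log2 difference was 0.02 over the members and 0.04 over all genes. In bulk tissue, fewer cells of a type and less RNA per cell cannot be told apart.

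With edgeR's quasi-likelihood test and Benjamini-Hochberg adjustment over all genes, the log2 difference of Spred2 was -0.56 (SE 0.04, adjusted p = 1.42e-06). The corresponding edgeR values were -0.58 for Etv5 (SE 0.09, adjusted p = 0.00018), -0.57 for Spry4 (SE 0.09, adjusted p = 2e-04) and -0.40 for Spred1 (SE 0.07, adjusted p = 0.000547). In folds, Spry4 and Etv5 were 1.49-fold lower, Spred2 1.47-fold and Spred1 1.32-fold. For the members that rose, edgeR gave 1.06 for Spry1 (SE 0.19, 2.09-fold, adjusted p = 0.000525), 0.73 for Etv4 (SE 0.21, adjusted p = 0.0121) and 0.42 for Dusp6 (SE 0.14, adjusted p = 0.0268). Spry2 (-0.04), Dusp4 (0.12) and Dusp5 (0.08) were not called. Ranges of all con/ko and all LDRG libraries did not overlap for 5 members (Spry1, Spry4, Spred1, Spred2 and Etv5), against 25.4% of all genes.

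At matched Xist, with only the 3 con/ko libraries coded M against the LDRG set, 6 members passed, where 39.3% of all genes did. Spry1 stayed higher (0.96), and Spry4 (-0.69), Spred1 (-0.46), Spred2 (-0.54) and Etv5 (-0.60) stayed lower. Spry2 joined the lower members at -0.28, with an edgeR adjusted p of 0.0236. Dusp6 (0.20) and Etv4 (0.57) no longer passed in that subset. Dusp6 also missed the threshold without 1 library at a time for cKO_LDRG 2 or 3, flox_LDRG 1 or 3 or flox_conko 4, with edgeR adjusted p between 0.0545 and 0.0696.

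Markers of several cell types differed between these sets. Of 8 neuron markers, 5 were lower and 0 higher in con/ko libraries, with a summed level of 10302 to 11087 CPM in cKO and 8816 to 9889 CPM in flox con/ko libraries, against 12750 to 13412 CPM in cKO and 12515 to 13187 CPM in flox LDRG libraries; no marker was at 0. All 8 fibroblast, 8 macrophage, 8 neutrophil and 5 red blood cell markers were higher, as were 7 of 8 myelinating Schwann cell, 6 of 8 endothelial and 4 of 8 pericyte markers. Of 8 satellite glia markers 2 were higher and 2 lower, and of 9 skeletal muscle markers 0 were called. Over all genes 26.1% were called as higher and 21.3% as lower. Of 6 markers of central glia 4 were higher, Gfap (3.02), Mog (2.98), Olig1 (5.58) and Olig2 (5.97), with a list sum of 66.4 to 142 CPM in cKO and 77.8 to 151 CPM in flox con/ko libraries, against 78.3 to 88.2 CPM in cKO and 76.7 to 89.1 CPM in flox LDRG libraries. Of these 6 markers, 1 was at 0 in all LDRG cKO libraries and 2 in all LDRG flox libraries. Neutrophil markers summed to 127 to 2168 CPM in cKO and 186 to 1112 CPM in flox con/ko libraries, against 1.63 to 5.52 CPM in cKO and 1.59 to 3.66 CPM in flox LDRG libraries, where 2 of the 8 were at 0. Fibroblast markers summed to 1451 to 2174 CPM in cKO and 1573 to 2450 CPM in flox con/ko libraries, against 712 to 773 CPM in cKO and 591 to 824 CPM in flox LDRG libraries. The part of these markers in the member differences was not tested.

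The rest of the pathway also differed between the sets in both directions. Of 19 receptors of growth factors, 9 were higher and 5 lower in con/ko ganglia, led by Egfr (1.47), Pdgfra (1.42, also a fibroblast marker) and Fgfr2 (0.91). Of 19 adaptor and Ras cycle genes, 3 were higher and 9 lower, the lower ones including the GTPase-activating gene Rasa1 (-0.30), the exchange factor gene Sos1 (-0.45) and the adaptor gene Grb2 (-0.30). In the kinase cascade 2 of 14 were higher and 4 lower, among the lower ones Braf at -0.30. Of 8 measured FGF ligands, 1 was higher and 4 lower, among them Fgf1 (-0.37) and Fgf9 (-0.63). Immediate early genes, which ERK and calcium signals induce within minutes, were higher for 5 of 14, among them Egr2 (1.73) and Egr1 (0.97), and lower for 2, among them Jun (-0.42).

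Among 10 other measured members of the same families, 3 were higher and 4 lower in con/ko ganglia. Etv1, the ETS factor gene closest to Etv4 and Etv5, was lower at -0.72 (SE 0.06), as was Spred3 at -0.39 (SE 0.10). Errfi1, a feedback inhibitor of the EGF receptor, was higher at 0.40 (SE 0.07) and Dusp2, a phosphatase gene known from blood cells, at 2.68 (SE 0.69). Of 4 further genes often counted with this family as ERK outputs, only Epha2 passed (0.75, SE 0.17). These counts stand against the 47.3% of all genes called in the same comparison.

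**Figure D2:**
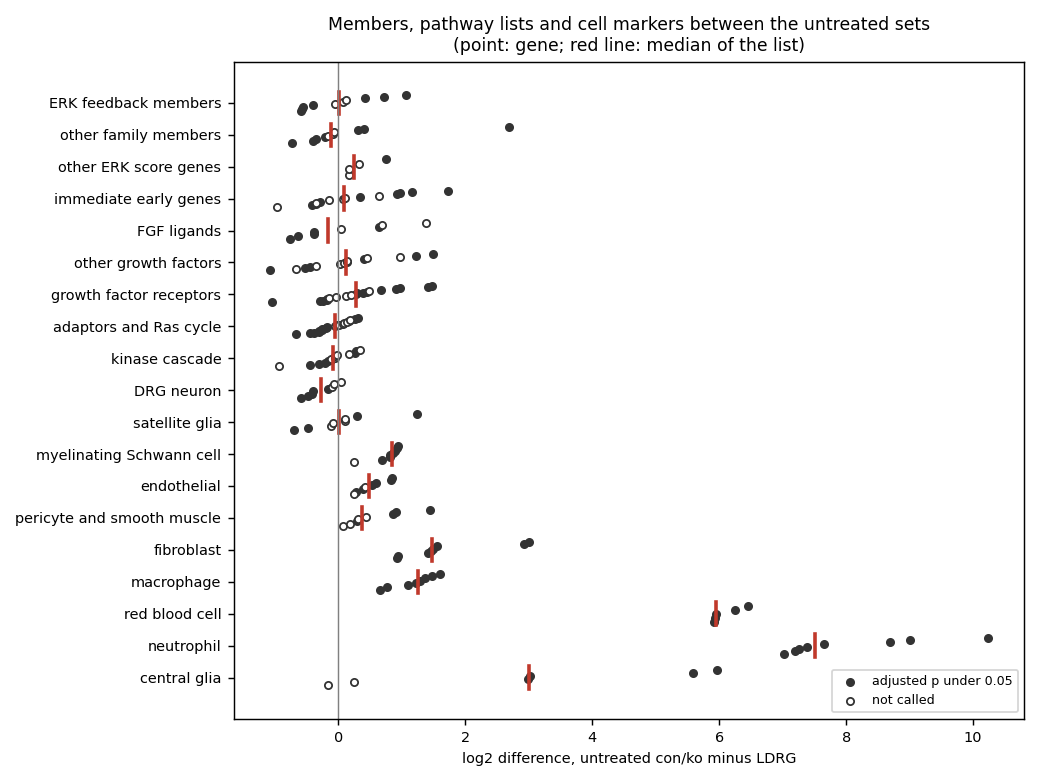
Log2 difference between untreated con/ko and LDRG libraries (horizontal axis; positive is higher in con/ko) for the 10 members, the other pathway lists and the cell type markers; each point is a gene, filled where the edgeR adjusted p was under 0.05, and red lines are list medians. The members spread to both sides of 0, while macrophage, fibroblast, neutrophil and red blood cell markers all lie to the right.

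Under CFA, Etv5 and Spred2 in libraries labelled flox were lower than in LDRG flox ganglia and higher than in con/ko flox ganglia. Spred1 was higher, and Dusp6 lower, than in con/ko flox ganglia. The comparisons of a genotype share its 4 CFA libraries, so their values are given side by side and are not independent. Against the LDRG set 2 of the 9 members other than Spry4 were called, both lower, where 3.74% of 16928 genes were called (1.94% higher, 1.8% lower). Against the con/ko set 4 of the 9 were called (3 higher, 1 lower), where 34.4% of genes were called (16.7% higher, 17.7% lower).

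For Etv5 in libraries labelled flox, edgeR gave -0.55 against LDRG (SE 0.10, adjusted p = 0.00433) and 0.32 against con/ko (SE 0.10, adjusted p = 0.0176). For Spred2 it gave -0.25 (SE 0.06, edgeR adjusted p = 0.0238) and 0.38 (SE 0.06, adjusted p = 0.000185). Both genes thus lay between the untreated sets. Ranges did not overlap with the con/ko flox libraries for 3 members (Spred1, Spred2 and Dusp6), against 40.1% of all genes, and with the LDRG flox libraries for 3 (Spry1, Spred2 and Etv5), against 20.5%. Spry4 was at -0.55 (SE 0.12) against LDRG and 0.11 (SE 0.12) against con/ko. Spred1 was at -0.09 (SE 0.11) against LDRG, not called, and at 0.45 against con/ko (SE 0.11, edgeR adjusted p = 0.00551).

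Dusp6 was at -1.09 against con/ko flox (SE 0.40, edgeR adjusted p = 0.041), and without flox CFA library 3 at -0.75 (SE 0.19, adjusted p = 0.00777). Against LDRG flox it was at -0.72 (SE 0.40, adjusted p = 0.354, edgeR) with that library and -0.37 (adjusted p = 0.305) without it. The Dusp6 call against con/ko was lost without flox_CFA 1 or 2 or any of the 3 flox con/ko libraries, with edgeR adjusted p between 0.0518 and 0.0986. Spry1 showed 0.65 against LDRG (SE 0.24, adjusted p = 0.144, edgeR) and -0.58 against con/ko (SE 0.23, adjusted p = 0.0591), and was called in the second comparison at -0.71 without flox_CFA 2 and at -0.72 without flox_conko 5 (edgeR adjusted p 0.0370 and 0.0392). The call of Spred2 against LDRG was lost without flox_CFA 1 (-0.22) or flox_LDRG 1 (-0.23) or 3 (-0.24), with edgeR adjusted p between 0.0826 and 0.109. That of Etv5 against con/ko was lost without flox_CFA 2 or 4 or flox_conko 6 (edgeR adjusted p 0.0548, 0.0556 and 0.0925), and that against LDRG was kept in each such fit (-0.60 to -0.45).

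In libraries labelled cKO, 0 of the 9 members were called against LDRG cKO ganglia by edgeR, where 1.25% of the 16928 genes were. By DESeq2 1 member, Dusp4, was called, and 834 of all genes were. An unadjusted edgeR p under 0.05 was found for 3 members, against 2791 of the 16928 genes. Dusp4 was at 0.67 (SE 0.19, edgeR adjusted p = 0.0797; DESeq2 adjusted p = 0.0169), Spred1 at 0.34 (SE 0.11, edgeR adjusted p = 0.137) and Spred2 at -0.15 (SE 0.06, edgeR adjusted p = 0.217). Spry4 was at 0.13 (SE 0.12), Etv5 at -0.06 (SE 0.10) and Spry1 at 0.03 (SE 0.23). Ranges did not overlap for 3 members, Spred1, Spred2 and Dusp4, against 20.4% of all genes.

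Against con/ko cKO ganglia 5 of the 9 members were called (4 higher, 1 lower), where 39.3% of genes were called (18.4% higher, 20.9% lower). Spred1 was at 0.65 (SE 0.10, 1.57-fold, edgeR adjusted p = 0.000123), Spred2 at 0.37 (SE 0.06, adjusted p = 6.3e-05) and Etv5 at 0.30 (SE 0.09, adjusted p = 0.0143). The phosphatase gene Dusp4 was at 0.51 (SE 0.17, edgeR adjusted p = 0.0237), a call that was lost without any of cKO_CFA 1 or 2 or cKO_conko 5, 6 or 7 (0.45 to 0.49, adjusted p 0.0514 to 0.0670). Spry4 was at 0.67 (SE 0.12). Spry1 fell, at -0.86 (SE 0.22, edgeR adjusted p = 0.00412). Etv4 was at -0.56 (SE 0.22, edgeR adjusted p = 0.0553) and was called without cKO_conko 7, at -0.77 (adjusted p = 0.00239). Ranges did not overlap for 4 of the 9 (Spry1, Spred1, Spred2 and Etv5), against 34.3% of all genes.

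At matched Xist, with only the con/ko libraries coded F (cKO_conko 4 and 5, flox_conko 4 and 5), the SPRED genes stayed higher in CFA libraries under both labels. CFA cannot be told apart from the set in this comparison. Spred1 was at 0.54 in libraries labelled cKO (SE 0.13, edgeR adjusted p = 0.0048) and at 0.46 in those labelled flox (SE 0.13, adjusted p = 0.0162), and Spred2 at 0.44 (SE 0.07, adjusted p = 0.000225) and 0.36 (SE 0.07, adjusted p = 0.00147). Etv5, at 0.28 in cKO and 0.26 in flox, missed the threshold (edgeR adjusted p 0.0736 and 0.104). Spry1 fell in libraries labelled cKO (-1.17, edgeR adjusted p = 0.000454) and was at -0.36 in those labelled flox (adjusted p = 0.199). Etv4 was called as lower in libraries labelled cKO (-0.89, edgeR adjusted p = 0.0019). Against cKO_conko 7, the only cKO con/ko library with L as the second letter of its code, it was at 0.37. Xist was near 0 in that library, so this value is not at matched Xist. Dusp4 in libraries labelled cKO (0.36, edgeR adjusted p = 0.206) and Dusp6 in those labelled flox (-1.09, adjusted p = 0.0868) were no longer called. In all, 4 of the 9 members were called in libraries labelled cKO, where 36.7% of all genes were, and 2 in those labelled flox, where 28.8% were.

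**Figure D3:**
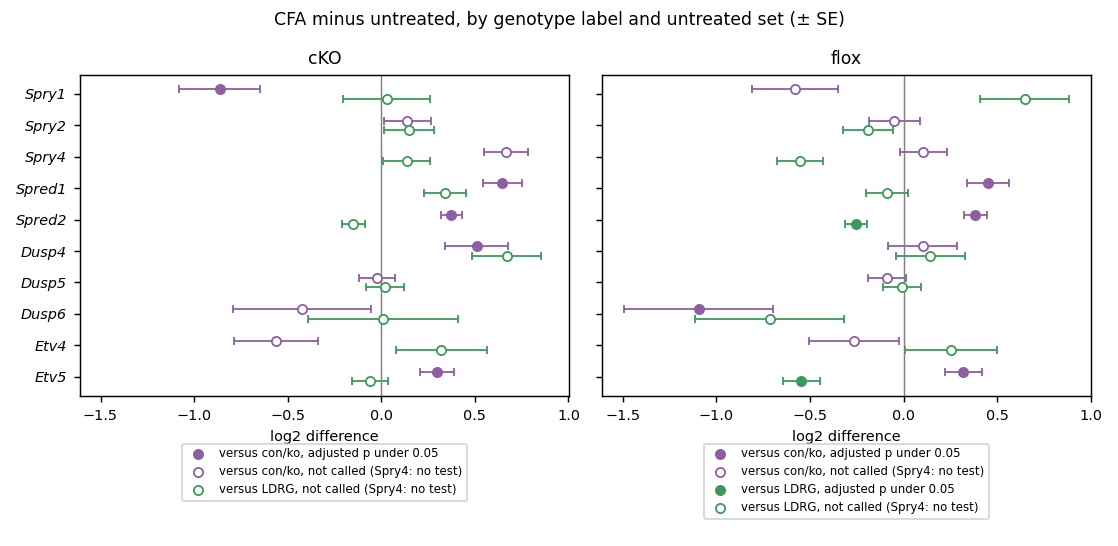
Log2 difference between CFA and untreated libraries (horizontal axis, ± SE) of the 10 genes against con/ko (purple) and LDRG (green), in libraries labelled cKO (left) and flox (right); filled points had an edgeR adjusted p under 0.05, and Spry4, drawn open, has no test. Spred2 lies left of 0 against LDRG and right of 0 against con/ko in both panels. Spry1 lies left of 0 against con/ko in both panels. Against LDRG it lies right of 0 in the flox panel and near 0 in the cKO panel (0.03, SE 0.23).

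Under both labels, the mean level under CFA lay between the means of the LDRG and con/ko sets for Spry1, Spred2, Etv4 and Etv5. How many of all genes show this order was not computed, so it is a description. For Spry1 under the cKO label, the CFA and LDRG means were close, at 2.09 and 2.05 CPM. With the genotype labels averaged, a comparison added because Tmem45b did not separate them, edgeR called, of the 9, Spred2 (-0.20, SE 0.04, adjusted p = 0.00538) and Etv5 (-0.30, SE 0.07, adjusted p = 0.00798) as lower than in LDRG ganglia, where 11.9% of all genes were called (6.7% higher, 5.23% lower). Against con/ko ganglia 7 of the 9 were called, where 52.1% of all genes were (24.1% higher, 28.0% lower). Spred1 (0.55), Spred2 (0.38), Dusp4 (0.31) and Etv5 (0.31) were higher, and Spry1 (-0.72), Dusp6 (-0.76) and Etv4 (-0.41) were lower. Without flox CFA library 3, Dusp6 was at -0.58 (SE 0.13, edgeR adjusted p = 0.0011), and Etv4 was no longer called (-0.40, adjusted p = 0.0672). Against LDRG ganglia Dusp4 was then also called, at 0.45 (SE 0.13, edgeR adjusted p = 0.0298), while Dusp6 was at -0.35 with that library and -0.18 without it, not called in either fit.

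Markers of several cell types differed in these comparisons as well. Against LDRG, red blood cell markers were higher for all 5 in both genotypes, neutrophil markers for 4 of 8 in libraries labelled cKO and 8 of 8 in those labelled flox, and fibroblast markers for 4 and 3 of 8. Against con/ko the same lists were lower: all 5 red blood cell markers in both genotypes, 8 and 6 of 8 neutrophil markers, and 3 and 6 of 8 fibroblast markers. Lower than in con/ko were also 5 of 8 myelinating Schwann cell, 6 of 8 macrophage, 3 of 8 endothelial, 1 of 8 pericyte and 4 of 6 central glia markers in libraries labelled cKO, and 7, 4, 4, 3 and 1 of the same lists in those labelled flox. Of 9 skeletal muscle markers 6 were lower in libraries labelled flox and 0 in those labelled cKO. Of 8 satellite glia markers, 2 were higher and 2 lower than in con/ko in libraries labelled cKO. In those labelled flox 0 were higher and 3 lower. Against LDRG 2 of them were lower in libraries labelled flox and 0 in those labelled cKO. Of all genes, 39.3% were called against con/ko in libraries labelled cKO and 34.4% in those labelled flox. The shares against LDRG were 1.25% and 3.74%. Neuron markers were higher than in con/ko for 3 of 8 in libraries labelled cKO and 5 of 8 in those labelled flox, with sums of 12003 to 12173 CPM in cKO and 10260 to 12035 CPM in flox CFA libraries. Their part in the member values was not tested.

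Of the immediate early genes, 0 were higher and 7 of 15 lower in CFA libraries labelled cKO than in con/ko cKO libraries, among them Egr1 (-1.43) and Ier2 (-0.95), and 0 higher and 5 lower in those labelled flox, among them Egr2 (-2.27) and Egr1 (-1.57). Against LDRG only Jun passed in libraries labelled flox (-0.70, SE 0.12) and none in those labelled cKO. Adaptor and Ras cycle genes were higher than in con/ko for 8 and lower for 2 of 19 in libraries labelled cKO, and higher for 9 and lower for 1 in those labelled flox, with Sos1 at 0.74 and 0.61 and Nf1, which encodes a Ras GTPase-activating protein, at 0.30 and 0.33. Etv1 was higher than in con/ko libraries by 1.19 (SE 0.11) in those labelled cKO and by 1.02 (SE 0.12) in those labelled flox, and against LDRG it was at 0.45 (SE 0.12, edgeR adjusted p = 0.0712) in those labelled cKO.

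Among ligands and receptors, Kitl, the ligand of the KIT receptor, was higher than in con/ko under both labels (1.19 in cKO, 0.94 in flox), and so was Bdnf, a neurotrophin gene of sensory neurons (0.64 in cKO, 0.70 in flox). Against LDRG Kitl was higher in libraries labelled cKO (0.73, SE 0.11, edgeR adjusted p = 0.00643) and Bdnf lower in those labelled flox (-0.67, SE 0.09, adjusted p = 0.000815). The receptor genes Egfr (1.18 in cKO, 1.28 in flox), Fgfr2 (0.85 in cKO, 1.02 in flox) and Pdgfra (1.01 in cKO, 1.09 in flox) were the 3 of 19 called against LDRG under both labels, all as higher. Phlda1, another ERK output gene, was lower than in con/ko under both labels (-0.86 in cKO, -0.98 in flox) and lower than in LDRG for flox (-0.83).

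The comparison of genotypes in untreated ganglia asked what deletion of Tmem45b in Mrgprd neurons changes. Of the 9 members other than Spry4, 0 were called by edgeR or by DESeq2, and 0 had an unadjusted p under 0.05. Over the 16706 genes tested, edgeR called 0.00599% and DESeq2 40 genes, and the unadjusted p was under 0.05 for 1125. No member had cKO and flox ranges that did not overlap over all untreated libraries, against 0.0658% of genes. The median log2 difference was -0.07 over the members, with Spry4 included, and -0.00138 over all genes. The widest member differences were 0.29 for Spry1 (SE 0.18, edgeR adjusted p = 0.828), -0.27 for Spry4 (SE 0.09), -0.24 for Dusp4 (SE 0.14, adjusted p = 0.806) and 0.24 for Etv4 (SE 0.21, adjusted p = 0.895). Spred1 (-0.02, SE 0.07), Spred2 (0.02, SE 0.04) and Dusp5 (-0.03, SE 0.07) were near 0.

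Within the LDRG set, the difference was -0.38 for Etv5 (SE 0.08, edgeR adjusted p = 0.99), 0.48 for Spry1 (SE 0.18, adjusted p = 0.99) and -0.33 for Spry4 (SE 0.13). None was called there by edgeR, where 0.0188% of genes were. By edgeR 3 members had an unadjusted p under 0.05 (Spry1, Spry2 and Etv5), against 732 of the 15998 genes tested. Ranges did not overlap for 3 members (Spry1, Spry2 and Etv5), against 10.4% of all genes. Within the con/ko set, Etv5 was at 0.13 (SE 0.07, edgeR adjusted p = 0.821), Spry4 at -0.20 (SE 0.11) and Etv4 at 0.41 (SE 0.32, adjusted p = 0.886). Again none was called by edgeR (0.243% of genes), and 0 had an unadjusted edgeR p under 0.05, against 1088 of the 16440 genes tested. Ranges did not overlap for 1 member, Etv5, against 7.79% of all genes. Between the same groups 6 of 9 skeletal muscle markers were called as lower in cKO, with list sums of 71.8 to 123 CPM in cKO and 462 to 775 CPM in flox libraries. Of 8 neuron markers 0 were called, with list sums of 10302 to 11087 CPM in cKO and 8816 to 9889 CPM in flox libraries. The part of these markers in the Etv5 values was not tested. Spry4 was thus lower on average in cKO in both sets, while Etv5 differed in direction between them.

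Under CFA, 0 of the 9 members were called between libraries labelled cKO and flox by edgeR or by DESeq2, and 1, Spred1, had an unadjusted p under 0.05. Over the 16116 genes tested, edgeR called 0% and DESeq2 18 genes, and the unadjusted p was under 0.05 for 799. The members' median was 0.15 and that of all genes 0.01. Spry4 is included in the members' median, which is therefore a description. Spry4 was at 0.37 (SE 0.11), Spred1 at 0.31 (SE 0.12, edgeR adjusted p = 0.938), Dusp4 at 0.24 (SE 0.14, adjusted p = 0.938) and Spry2 at 0.17 (SE 0.12, adjusted p = 0.938). Dusp6 was at 0.59 (SE 0.48, edgeR adjusted p = 0.946), and without flox CFA library 3 at 0.24 (SE 0.11, adjusted p = 0.933). Spry1 was at -0.13 (SE 0.18, edgeR adjusted p = 0.963). No member had ranges that did not overlap, against 3.50% of all genes.

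Other genes of the pathway gave the same count in both genotype comparisons: 0 were called in any list. Under CFA Etv1 was at 0.33 (SE 0.13) and Phlda1 at 0.34 (SE 0.13), and in untreated ganglia they were at 0.14 (SE 0.06) and 0.06 (SE 0.15). Il17rd, which encodes the receptor-like ERK inhibitor Sef, was at -0.26 (SE 0.09) in untreated ganglia. The adjusted p of each of these by edgeR was 0.662 or above.

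**Figure D4:**
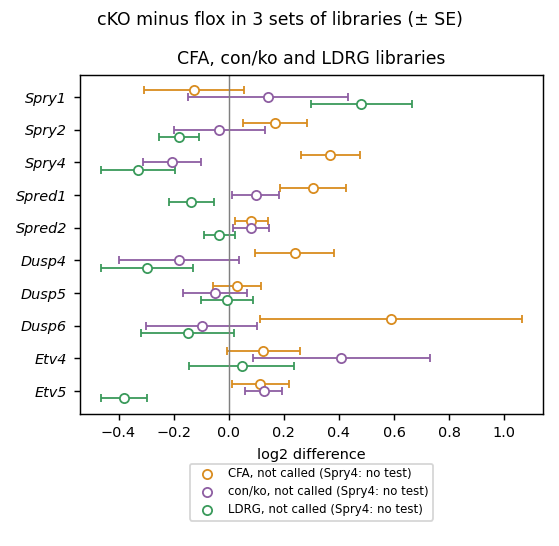
Log2 difference between cKO and flox (horizontal axis, ± SE; positive is higher in cKO) of the 10 genes in the CFA, con/ko and LDRG libraries, each fitted within its set. Open points mark that no tested member had an edgeR adjusted p under 0.05; Spry4, given with no test, is on the right under CFA and on the left in both untreated sets.

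The genotype difference under CFA minus that in untreated ganglia, the contrast that brought this family into view, was 0.62 on the log2 scale for Spry4 (SE 0.15, 1.54-fold). Computed against each untreated set alone it was 0.69 (SE 0.18) with LDRG and 0.56 (SE 0.17) with con/ko. For the other inhibitors it was 0.31 for Spred1 (SE 0.13), 0.26 for Spry2 (SE 0.16), 0.05 for Spred2 (SE 0.07) and -0.45 for Spry1 (SE 0.28). Among the phosphatases it was 0.70 for Dusp6 (SE 0.47), or 0.35 (SE 0.22) without flox CFA library 3, 0.47 for Dusp4 (SE 0.22) and 0.05 for Dusp5 (SE 0.12). Etv4 was at -0.11 (SE 0.29) and Etv5 at 0.23 (SE 0.11). For Etv5 the value was 0.48 (SE 0.14) with the LDRG set and -0.02 (SE 0.13) with the con/ko set. The values with each set share the CFA libraries, and the difference between them was not tested for any member. These are descriptions, and Tmem45b did not separate the CFA labels on which they rest.

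Genes whose pattern over the 21 libraries was most like that of a member were ranked by the root mean square difference of log2 CPM after centring each gene, among 14233 other genes with a mean of at least 1 CPM. For Spry4, whose own spread on that scale was 0.317, the nearest were Tgfb2, a growth factor gene (0.157), Frmd4a, a scaffold protein gene (0.16), and Trib2, a pseudokinase gene (0.166). Etv5 was at rank 4 (0.167) and Spred2 at rank 32, while Spry1 and Dusp6 were among the farthest, at ranks 12893 and 13275. Trib2 had 204 ± 7.77 CPM in CFA libraries labelled cKO and 178 ± 10.5 CPM in those labelled flox (SD, n = 4 each), against 201 ± 1.91 CPM in cKO and 226 ± 14.5 CPM in flox libraries of the LDRG set (SD, n = 3 each). In the con/ko set Trib2 was lowest, at 122 ± 11.1 CPM in cKO (SD, n = 4) and 126 ± 7.11 CPM in flox libraries (SD, n = 3). For Etv5, with a spread of 0.284, the nearest were Gap43, a growth-associated gene of axons (0.118), S1pr3, a sphingosine-1-phosphate receptor gene (0.118), and Prkaca, a catalytic subunit of protein kinase A (0.122). Spred2 was at rank 20 and Spry4 at rank 85. The libraries share name sets, sex and marker levels, so likeness over them is a description.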

How the data were processed

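Poly-A RNA was read as pairs of 150 bases, per the labels' protocols. The authors deposited raw read counts per gene, for 14 libraries by 24524 genes (CFA and LDRG) and for 7 libraries by 24512 genes (con/ko), with 24381 genes in both. Per the submitters' processing notes, fastp 0.23.2, BWA 2.2.1, SAMtools 1.14, DESeq2 1.40.2 and build mm10 were used; which tool did the counting is not given.

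Groups came from sample titles and library names. In R 4.3.3, edgeR 4.0.16 was run on the counts after filterByExpr (at least 10 counts, 15 in total) and TMM scaling; its quasi-likelihood test was adjusted by Benjamini-Hochberg over all genes tested, with calls at adjusted p under 0.05. Untreated genotypes and untreated sets were compared in 1 fit of 13 libraries with terms for both, CFA genotypes in a fit of 8 libraries, and CFA responses in 1 fit of 21 libraries with a mean per group. The procedure was tested on simulated data. Depth was 53.4 to 72.5 M counts per library. Replicates differed by more than sampling noise in each of 27 pairs (chi-square per degree of freedom 26.95 to 150.4).

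The members, gene lists and marker lists were chosen with earlier results of these data known. All 10 members were fitted in every comparison, and some values that were not called are left out of the text. Of other lists, counts are given for some comparisons, with up to 4 genes of smallest p. The 3 nearest genes were sought for Spry4, Dusp6 and Etv5. Alternatives were RLE size factors, DESeq2 1.42.0, dropping the filter except for genes at 0, a mean CPM of 5 or more, leaving out each library, a replicate block, only the groups compared, each untreated set alone, library code letters and, added after seeing the data, genotype labels averaged, also without flox CFA library 3. What the code letters F, M, C and L mean is not stated in the labels. The values of 1 gene of the kinase cascade are not reported here.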

Additional observations from a re-analysis of the deposited data

Results flagged for a closer look

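Etv5 had genotype differences of opposite direction in the untreated sets: all cKO libraries lay above all flox libraries in the con/ko set, and all cKO libraries lay below all flox libraries in the LDRG set. The con/ko gap was narrow, with cKO_conko 7 at 90.8 CPM and flox_conko 5 at 90.4 CPM. On the log2 scale the cKO minus flox difference was 0.13 in the con/ko set and -0.38 in the LDRG set, 0.51 apart. The difference between the sets was not tested, and neither value was called by edgeR within its set.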

How the results depend on the processing

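The count of members called between untreated sets stayed at 6 or 7 in every alternative, and at 0 of 9 (Spry4 is not counted here or below) for both genotype comparisons. In flox CFA versus LDRG, 2 members were called, and 1 or 2 with a library left out (1 without flox_CFA 1 or flox_LDRG 1 or 3) and 1 with only these groups fitted. In flox CFA versus con/ko, 4 were called, and 2 to 4 with a library left out (2 without flox_conko 6), 2 with only these groups fitted, 2 with con/ko libraries coded F and 7 with labels averaged. In cKO CFA versus LDRG, 0 were called, 1 by DESeq2 and 2 with labels averaged. Against con/ko, 5 were called, 3 when a minimum mean of 5 CPM left out Spry1, Dusp4 and Etv4, and 4 to 7 under the other alternatives. No count is given for cKO con/ko libraries coded L, because only cKO_conko 7 is left in that group. The Spry4 difference of genotype differences, 0.62, ranged from 0.55 to 0.70 with a library left out. Replicate numbers did not pair the libraries (correlations of same-numbered deviations from -0.169 to 0.319); with them as a replicate block, members called were 0 in both genotype comparisons, 2 in flox and 0 in cKO CFA versus LDRG, and the Spry4 value was 0.61. No member called in the main fit of a comparison changed sign there under any alternative run. Etv4 in cKO CFA versus con/ko was not called in the main fit. It was called as lower by DESeq2 (-0.55) and with con/ko libraries coded F (-0.89), and was at 0.37 against cKO_conko 7 alone. The causes of lost calls were not tested. Over all genes, counts moved more: in flox CFA versus LDRG 633 were called, and 182 to 729 with a library left out (267 without flox_CFA 1, 412 without flox_CFA 2, 276, 182 and 373 without flox_LDRG 1, 2 and 3), 1188 by DESeq2 and 2021 with labels averaged. In cKO CFA versus LDRG 211 were called, and 12 to 194 with a library left out, 834 by DESeq2, 323 with only these groups and 2021 with labels averaged. In cKO CFA versus con/ko 6653 genes were called, and in flox CFA versus con/ko 5826. With labels averaged 8812 were called. In the untreated genotype comparison 1 gene was called, 40 by DESeq2, 44 without cKO_LDRG 1, 3 in the LDRG and 40 in the con/ko set alone.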
